A study of Mus musculus with 4 samples.

Results

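The regions described here lost H3K27ac in the injured colon and carried no HNF4A peak in either condition: 517 of the 1000 regions of the water-enriched H3K27ac list, out of 2000 regions in both H3K27ac lists. They were chosen by measured values in 2 steps. The authors' score of H3K27ac in DSS minus water put a region on the water-enriched list, and a region was then kept when it shared not even 1 bp with a peak of either HNF4A list. The remaining 483 regions of the list held an HNF4A peak, 305 in both libraries, 154 in the water library alone and 24 in the DSS library alone.

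H3K27ac is the acetylation of histone H3 at lysine 27, a mark of active enhancers and promoters. Distal regions with this mark are mostly read as enhancers, which work through the transcription factors bound there. HNF4A is a nuclear receptor of the differentiated intestinal epithelium and one of several factors, with the CDX, KLF and GATA families, known to occupy enhancers of the gut. DSS (dextran sulfate sodium) given in the drinking water damages the colonic lining and causes colitis.

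ChIP-seq was performed on scraped colonic epithelial cells of mice aged 2 to 4 months, with 1 library for each of 4 groups: H3K27ac after water only, H3K27ac after 3% DSS for 6 days, and HNF4A after each of the same treatments. The labels give no strain, sex or pooling of animals. With 1 library a group, no difference between conditions has a replicate check, and every interval given is a 95% interval that covers counting error or the spread between regions, not the spread between mice. A scraping is a bulk sample, so fewer cells of a type and less acetylation per cell cannot be told apart. The deposited lists name no genes, so the labelled cell type was not checked against marker genes here.

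The H3K27ac libraries held 10143920 tags in water and 10329416 in DSS. Listed HNF4A peaks numbered 17886 for water and 10688 for DSS, with a depth that is unknown from these lists, so a region without a listed peak may still carry weaker binding. Coordinates are those of the mouse build mm9 as the lists give them. No genome of that build was used here, so no region sequence is shown.

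The loss itself came first. Regions without HNF4A held a median of 231 nucleosome tags in water (quartiles 154 and 333) and 111 in DSS (quartiles 63 and 184). Nucleosome tags are those the authors assigned to the nucleosomes of a region, as distinct from the linker DNA between them. Water tags ran from 50 to 1033 across the regions and DSS tags from 20 to 729. After scaling to the library totals, the median region was 1.99-fold higher in water (quartiles 1.70 and 2.46), which is a log2 ratio of DSS to water of -0.99 (interval of the median -1.05 to -0.96).

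Acetylation was therefore reduced rather than erased in most of these regions. More than 2-fold lower in DSS were 253 of 517 regions, 48.9% (44.7 to 53.2), against 40.1% of the whole water-enriched list and 20.1% of both lists together. More than 4-fold lower were 18 of the 517 regions, against 23 of the 1000 in the whole water-enriched list and 5 of the 483 with HNF4A. More than 8-fold lower was 1 region, the only one in the whole list. The interval of the ratio lay on the water side in 511 regions, against 99.3% of the water-enriched list and 49.6% of both lists. These counts come from the contrast that selected the list, and nothing is read from them about change in other animals.

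**Figure D1:**
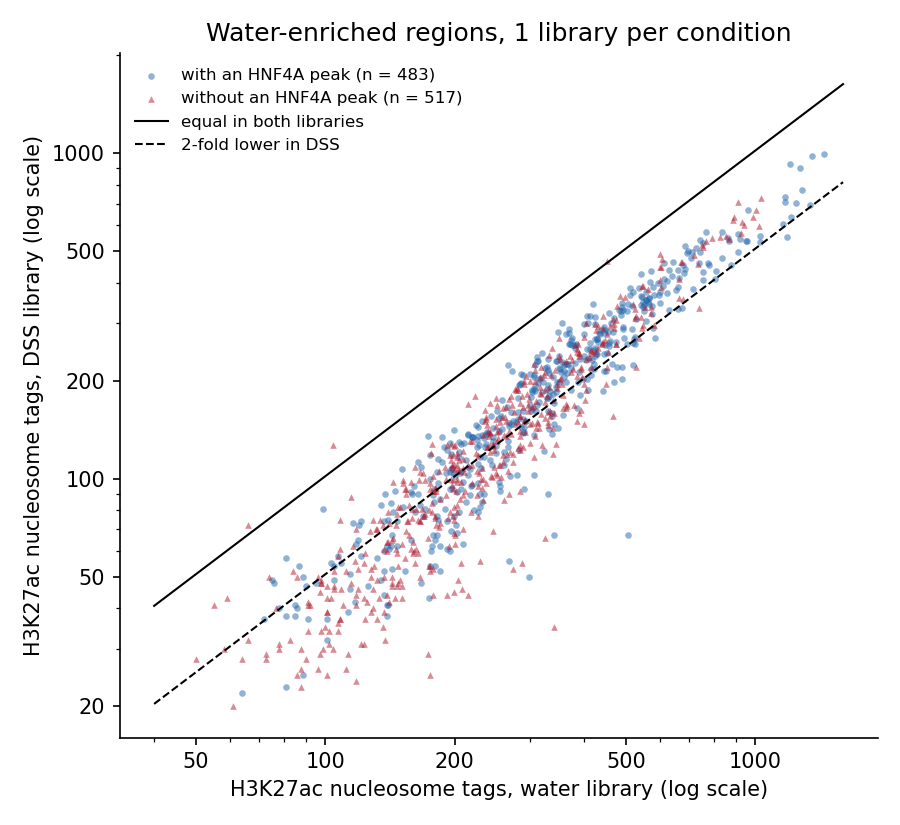
Nucleosome tags of H3K27ac in each of the 1000 water-enriched regions, water library on the x axis and DSS library on the y axis, both on log scales; red triangles are the 517 regions without an HNF4A peak, blue circles the 483 with one. The solid line marks equal tags after scaling and the dashed line a 2-fold lower level in DSS; regions without HNF4A lie lower on both axes, with medians of 231 and 111 tags against 314 and 185.

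The 10 regions of highest score started from 215 to 1019 nucleosome tags in water. The lower levels of the class, down to 50 tags, are not among them. The first, on chromosome 1 (152589441 to 152590001), went from 274 nucleosome tags with water to 53 with DSS, a ratio of water to DSS of 5.26 (3.91 to 7.21). Its nearest HNF4A peak lay 172 kb away in both libraries. The neighbouring region (152590026 to 152590571) dropped from 175 to 25 tags, a ratio of 7.13 (4.67 to 11.3), so this isolated site lost most of its mark over both windows.

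A region on chromosome 6 (84376091 to 84376641) had the largest fold loss of all 517. There were 341 nucleosome tags in water and 35 in DSS, a 9.92-fold difference (6.99 to 14.5), and lay 2.53 kb from its reference point, the unnamed feature to which the authors' file gives a distance. Linker tags fell there too, from 39 to 6, and the nearest HNF4A peak in water was 15.4 kb away. This was the only one of the 517 regions past 8-fold.

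On chromosome 8 (126234176 to 126234701), 287 tags in water stood against 55 in DSS, a ratio of 5.31 (3.97 to 7.23). Unlike the site on chromosome 1, it lay next to strong HNF4A binding: a water peak ranked 84 of 17886 by the authors' peak score began 911 bp away and was also found in DSS. A region on chromosome 4 (57366276 to 57366841) went from 215 to 44 tags, a ratio of 4.98 (3.58 to 7.05), with a water peak ranked 946 at 8.65 kb. These regions carried a strong loss with binding nearby but none on the acetylated window.

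Other regions reached a high score from a smaller fold on a high level. The regions on chromosome 11 at 80616126 to 80616756 and at 86839921 to 86840481 held 1006 and 1019 tags in water and still 671 and 598 in DSS, with ratios of 1.53 (1.38 to 1.69) and 1.74 (1.57 to 1.92). On chromosome 6 (127522066 to 127522651), 581 tags in water and 297 in DSS gave a ratio of 1.99 (1.73 to 2.30), at 125 kb from any HNF4A peak. Regions on chromosomes 7, 10 and 15 (starting at 108249816, 85802191 and 37247341) lay between these extremes, at 2.76, 3.04 and 2.50-fold. A site on chromosome 12 (58931591 to 58932156) combined a large fold with fewer tags, 173 in water and 29 in DSS, a ratio of 6.07 (4.08 to 9.34), at 199 kb from the nearest peak.

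**Figure D2:**
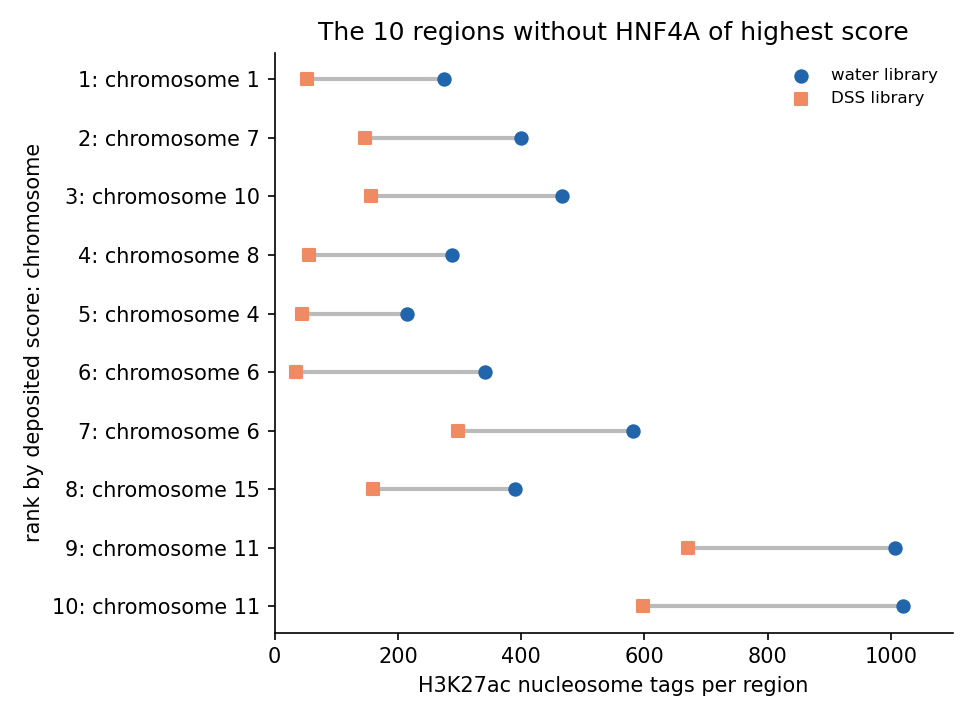
Nucleosome tags of H3K27ac in the 10 regions without HNF4A of highest deposited score, ranked from top to bottom; blue circles are the water library, orange squares the DSS library, and grey lines join the same region. Water lies above DSS in all 10, with the widest fold on chromosome 6 (341 against 35 tags) and the highest levels on chromosome 11.

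Regions without HNF4A started from less H3K27ac than regions with it. The median of 231 water tags (209 to 245) compares with 314 (298 to 337) in the 483 regions with a peak, and the DSS medians were 111 (104 to 124) and 185 (160 to 199). Widths were nearly the same, with medians of 550 and 555 bp. The class without HNF4A made up 68.5% of regions (61.8 to 74.5) in the lowest quintile of tags and 32.5% (26.4 to 39.3) in the highest. It held 51.7% of the regions, 44.1% of the water tags and 46.1% of the tags lost over the whole list.

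In fold terms the loss was larger without HNF4A. The median log2 ratio was -0.99 without and -0.84 (-0.88 to -0.81) with a peak, a difference of -0.15. More than 2-fold lower were 48.9% against 30.6% of regions (26.7 to 34.9), a difference of 18.3 points (12.3 to 24.1). Regions with a peak in water alone lay between, with a median of -0.93 (-1.004 to -0.86) and 242.5 water tags, while regions with a peak in both libraries had -0.81 (-0.86 to -0.77) and 353 water tags. The 24 regions with a peak in DSS alone did not follow this order, with a median of -0.78 (-1.12 to -0.64) at 215 water tags and a wide interval. In tags rather than fold the order was the reverse: the median region without HNF4A lost 112 tags and the median region with it 135, at the depth of the water library.

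Tag level moved with this difference. The score that built the list is a difference of square roots, so a weakly acetylated region must fall by a larger fold to enter: with no linker tags, a region of 100 water tags needs a ratio of 2.92 to reach the lowest score on the list, one of 200 tags 2.00, one of 400 tags 1.59 and one of 800 tags 1.37. Compared within quintiles of tags, the difference of medians was -0.21 in the lowest quintile, where the medians were -1.39 (-1.47 to -1.28) without and -1.18 (-1.30 to -1.01) with HNF4A. It was -0.05, -0.06 and -0.08 in the next 3 and turned to 0.06 in the highest. The intervals of the medians overlapped in all 5 quintiles, which does not by itself show that the classes were alike. More than 2-fold lower in the lowest quintile were 81.8% (74.4 to 87.3) without and 65.1% (52.8 to 75.7) with HNF4A. The share was also higher without HNF4A in the next 3, and lower in the highest (4.62% and 6.67%). Averaged over the quintiles with the weights of the regions without HNF4A, the difference of medians was -0.09 rather than -0.15.

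**Figure D3:**
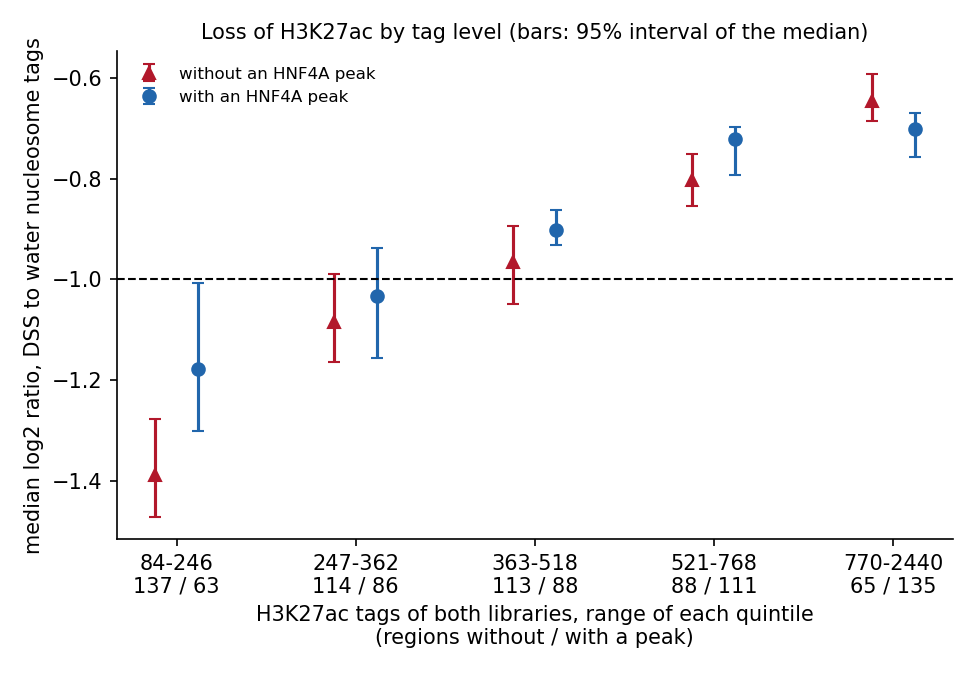
Median log2 ratio of DSS to water nucleosome tags (y axis) in quintiles of H3K27ac tags summed over both libraries (x axis, with the number of regions without and with a peak); red triangles are regions without HNF4A, blue circles regions with it, and bars are 95% intervals of the median. The ratio shrinks from -1.39 and -1.18 in the lowest quintile to -0.65 and -0.70 in the highest, the gap between the classes is widest in the lowest, and the intervals overlap in all 5.

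The same comparison was made inside shared stretches of the genome. Chains of water-enriched regions with no gap over 50 kb formed 356 stretches that held only regions without HNF4A, 332 that held only regions with it and 58 that held both. In the 58 mixed stretches, the 77 regions without HNF4A had the lower mean log2 ratio in 30 and the higher in the other 28, with a median difference of -0.02 (-0.13 to 0.06). They held fewer water tags than their neighbours with a peak in 37 of 58 stretches. Within a locus, then, no difference in fold loss was resolved.

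Many regions without a peak had one nearby, more often in the water list than in the shorter DSS list. The nearest peak of either library lay at a median of 5.23 kb (4.39 to 7.53), with quartiles at 1.49 and 21.9 kb. Within 1 kb lay a peak in 105 regions (20.3%), within 5 kb in 253 (48.9%) and within 50 kb in 454 (87.8%). By the water list alone the median was 6.39 kb (5.06 to 9.01), with 45.3% of regions within 5 kb. By the DSS list alone it was 14.8 kb (12.4 to 18.1), with 31.9% within 5 kb and 41.0% within 10 kb. At the edge of the rule, regions on chromosomes 17 (33015091 to 33015541), 10 (42567931 to 42568381) and 3 (101587986 to 101588466) missed a peak by 6, 19 and 23 bp, and held 231, 174 and 244 water tags against 108, 80 and 101 in DSS. Just outside it, regions on chromosomes 9, 16 and 6 (starting at 98943386, 78260081 and 124875816) shared 6, 15 and 24 bp with one, and held 203, 183 and 266 against 91, 75 and 125. The levels on both sides of the edge overlapped in both libraries.

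DSS-enriched regions without HNF4A, 771 of 1000, served as the comparison, since the same rule leaves both sets free of peaks. Of these, 10 lay on chromosome Y, where neither HNF4A list holds a peak, and count as beyond every distance. The water-enriched list held no region on chromosome Y, and whether the sex of the mice differed between the libraries was not tested. A peak lay within 5 kb of 38.5% of the 771 (35.2 to 42.0), which is 10.4 points fewer (4.89 to 15.9) than of the water-enriched regions. Within 1 kb and 10 kb the differences were 4.49 points (0.24 to 8.88) and 5.81 points (0.28 to 11.3). Within 50 kb the difference was 3.77 points and not resolved (-0.16 to 7.52). All these differences count the 10 chromosome Y regions, which could not lie near a listed peak, and were not recomputed without them. Given their low lower limits, the differences at 1 kb and 10 kb are not taken as resolved. DSS-enriched regions also held fewer tags, with a median of 31 in water and 93 in DSS, and whether tag level accounts for the nearer peaks was not tested.

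**Figure D4:**
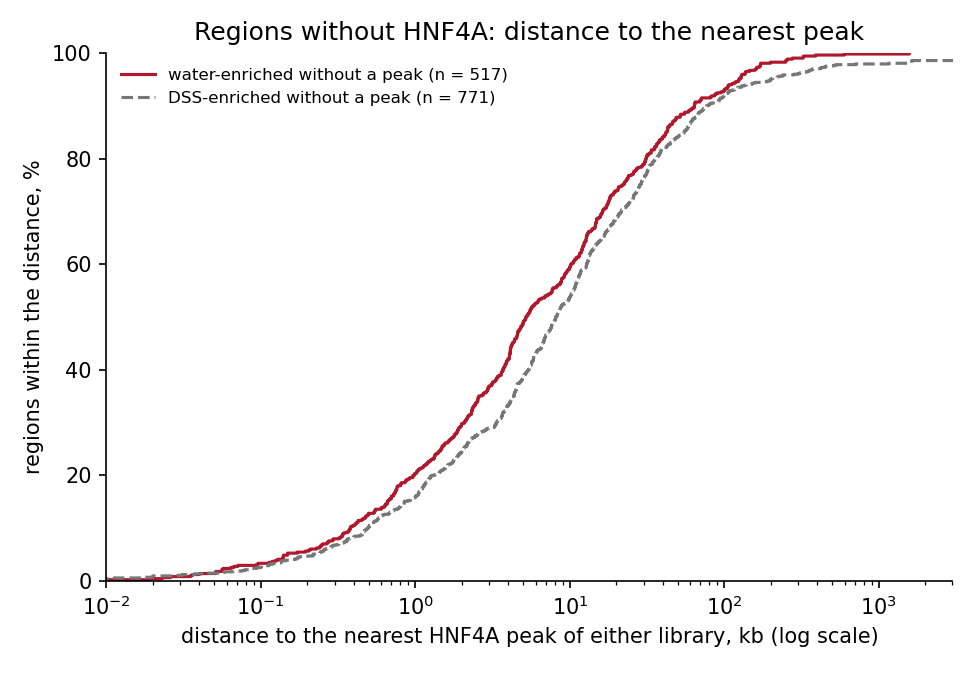
Cumulative share of regions (y axis, percent) within a given distance of the nearest HNF4A peak of either library (x axis, kb, log scale); the red line is the 517 water-enriched regions without a peak, the dashed grey line the 771 DSS-enriched regions without one. The red line reaches 48.9% at 5 kb and the grey line 38.5%, and both pass 84% at 50 kb.

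The peaks beside these regions were ordinary members of the water list. Among the 293 regions with a water peak within 10 kb, that nearest peak was found again in DSS for 55.3% (49.6 to 60.9), close to the 52.9% of all water peaks. Its median rank percentile was 54.9 (48.3 to 58.7, where 100 is the strongest), compared with 62.8 (57.3 to 67.4) for the peaks that sit on the 459 regions with a water peak. The surroundings held a median of 2 water peaks within 50 kb (quartiles 1 and 5), and 3 (quartiles 1 and 4) around regions with HNF4A, peaks on the region itself not counted. Windows of 100 kb crowded with 10 or more water peaks held 4 regions without HNF4A (0.77%) and 12 with it (2.48%), a difference of -1.71 points (-3.58 to -0.11). These counts include peaks on the regions themselves. By the rule only regions with HNF4A can hold such a peak, which favours this direction. No difference in surroundings is therefore read from these windows.

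The fold loss was larger in the regions farther from HNF4A. The median log2 ratio was -0.95 (-1.03 to -0.88) in the 154 regions within 2 kb of a peak and -0.93 (-0.99 to -0.85) in the 153 at 2 to 10 kb. It was -1.11 (-1.18 to -0.97) in the 147 at 10 to 50 kb and -1.19 (-1.28 to -1.07) in the 63 beyond 50 kb. More than 2-fold lower were 58.6% of the 210 regions beyond 10 kb and 42.3% of the 307 within it, a difference of 16.2 points (7.46 to 24.6). Water tags moved with distance as well, with medians of 233, 247, 218 and 180 in the same order. Within quintiles of all tags, regions beyond 10 kb had the lower median in 4 of 5, with differences of -0.03 to -0.16. Within quintiles of water tags alone the differences were -0.13, -0.25 and -0.16 in the lower 3 and 0.01 and -0.01 in the others. The intervals overlapped in each quintile of both kinds, and no interval of the difference within a quintile was computed.

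The 5 regions farthest from HNF4A were not among the 5 of largest fold loss. Of those of largest fold loss, both windows on chromosome 1 and the site on chromosome 12 lay 171, 172 and 199 kb from a peak. The others, on chromosomes 6 and 8, lay 15.4 and 0.903 kb away. Lying 1577 kb from the nearest peak, a site on chromosome 10 (129979596 to 129980176) fell from 101 tags to 43 in DSS, a ratio of 2.39 (1.66 to 3.50). One on chromosome 18 (15585871 to 15586396), 598 kb away, counted 107 tags in water against 36, a ratio of 3.03 (2.06 to 4.55). Regions on chromosomes 3, 6 and 17 (starting at 57148006, 114938261 and 8079121), 325 to 390 kb away, held between 250 and 257 tags in water and 140 to 155 in DSS. Their ratios of 1.66, 1.69 and 1.84 were below the median of the 517, and those on chromosomes 10 and 18 were above it.

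Most regions without HNF4A stood alone, and so did most regions with it. Merging regions without HNF4A that overlap left 464 separate sites, and 332 of the 517 had no other region of the class within 50 kb. Another region of the same class lay within 50 kb of 35.8% of regions without HNF4A and 35.2% of regions with it. With neighbours of either class counted, 289 of the 517 stood alone. Regions with HNF4A lay within 10 kb of 48 of the 517 (9.28%, 7.07 to 12.1). Distance to the reference point was similar in both classes, with medians of 24.985 kb (21.9 to 27.3) without and 21.6 kb (19.3 to 24.2) with a peak. By chromosome, the class made up from 36.2% (24.0 to 50.5) of water-enriched regions on chromosome 10 to 65.5% (47.3 to 80.1) on chromosome 19, over 20 chromosomes compared.

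Of the groups that did form, the largest by separate sites, counted after merging overlaps, are described. Another 4 regions on chromosome 17 (74427811 to 74428856) all overlap within 1.04 kb and merge into a single site. The list holds only regions scored as lower in DSS, so the direction of all these windows was fixed by selection. The first spans 78 kb of chromosome 1 (132658006 to 132735986), where 4 separate regions held 295, 168, 607 and 98 tags in water and 182, 81, 474 and 34 in DSS, with ratios between 1.30 and 2.94. Between the regions lie 4 HNF4A peaks in each library, all more than 1.5 kb from the acetylated windows. A group of 4 regions on chromosome 17 (84398541 to 84413986), of which a pair overlap, held 136, 190, 86 and 91 tags in water and 72, 109, 25 and 41 in DSS, with ratios of 1.78 to 3.50. In both groups described, the weakest window by water tags had the highest ratio. Selection favours this pattern too, since a region with fewer tags needs a larger fold to enter the list.

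Mixed stretches include the neighbourhood of Klf4, a transcription factor of differentiating colonic epithelium and goblet cells, and the HoxA cluster, whose posterior genes pattern the hindgut. Both names come from general knowledge of the mouse map and not from an annotation used here. Around Klf4 on chromosome 4 (55616481 to 55731861), 4 regions without HNF4A held 163, 267, 384 and 316 tags in water and 81, 176, 207 and 184 in DSS. Their ratios of 1.54 to 2.05 overlap the 1.65 to 2.12 of the 3 regions with a peak. At HoxA on chromosome 6 (52198701 to 52248971), 3 regions without HNF4A held 185, 220 and 251 tags in water and 73, 110 and 131 in DSS, with ratios of 1.95 to 2.58, against 1.86 to 3.00 in the 3 with a peak. At both loci the ratios of regions with and without HNF4A overlapped.

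**Figure D5:**
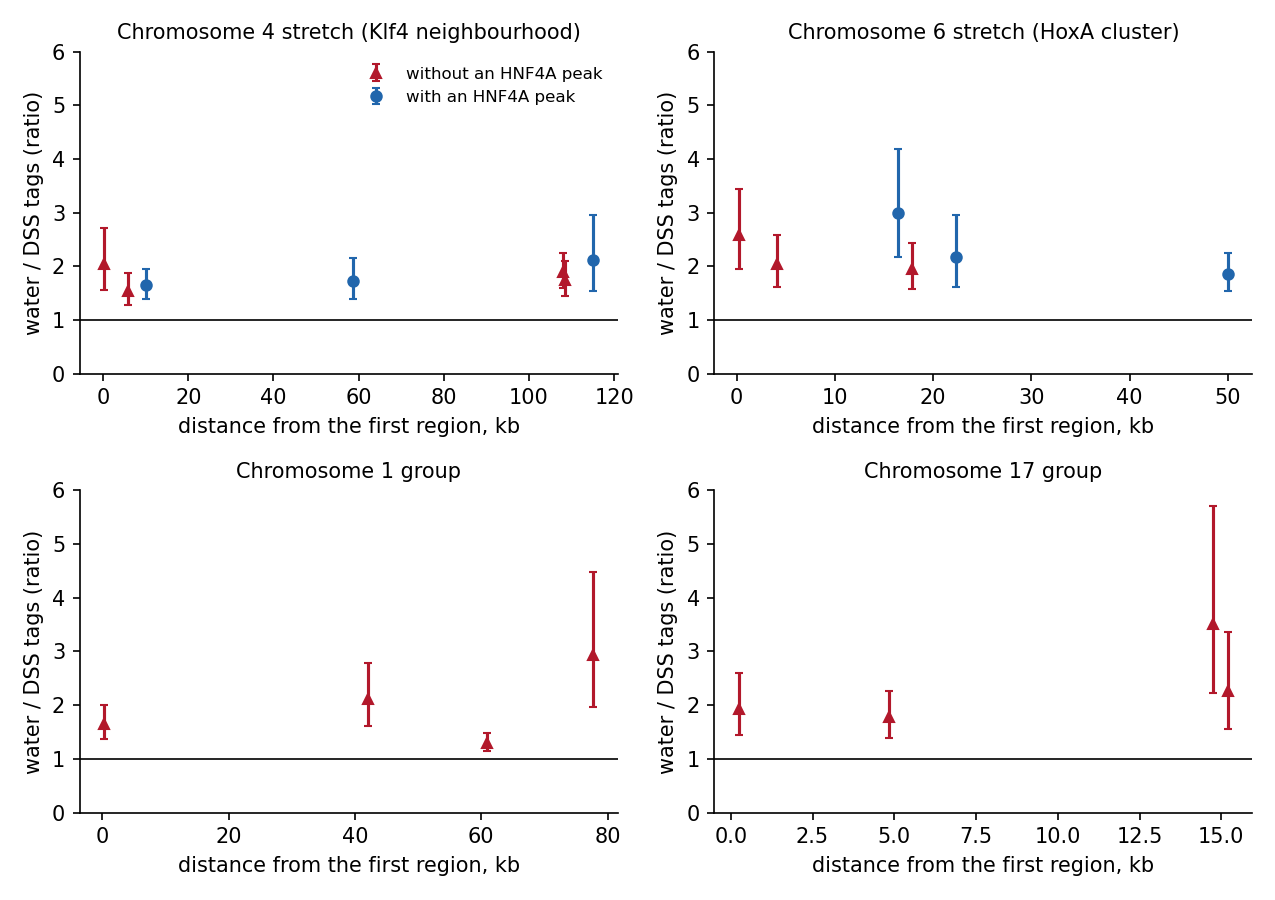
Ratio of water to DSS nucleosome tags (y axis, linear, 95% counting intervals) by distance from the first region of the stretch (x axis, kb) in the chromosome 4 and chromosome 6 stretches and in the largest groups without HNF4A on chromosomes 1 and 17; red triangles are regions without, blue circles regions with an HNF4A peak. Every region lies above 1, and the classes overlap in the upper panels, between 1.54 and 3.00.

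A few regions entered the list through the linker term of the score rather than through fewer nucleosome tags. Linker tags were low, with medians of 6 in water and 9 in DSS, and were higher in DSS in 340 of 517 regions, 65.8% (61.6 to 69.7), against 66.7% (62.3 to 70.7) of regions with HNF4A. The score counts linker tags against nucleosome tags, so the list favours regions with more linker tags in DSS. In the DSS-enriched list the share was 21.9% without and 17.5% with HNF4A. In 6 of the 517 regions the interval of the nucleosome ratio held 1, and in 3 of those 6 nucleosome tags were higher in DSS. On chromosome 18 (61179201 to 61179796), nucleosome tags numbered 104 with water and 127 with DSS while its linker tags went from 17 to 100. On chromosome 5 (123589061 to 123589651) they were 452 and 468, with linker tags of 436 and 693, and on chromosome 15 (74825431 to 74826046) 66 and 72, with 10 and 65. In these 3 regions the name of the class does not describe the tags, since all tags together were also higher in DSS; in the other 514 they were lower.

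Opposite calls met on the same DNA in 8 of the 517 regions, 1.55% (0.79 to 3.02). The same held for 3 of the 483 regions with HNF4A, 0.62% (0.21 to 1.81), and the intervals overlap. The 8 regions without HNF4A share 345 to 420 bp with a DSS-enriched region. In 7 of these 8 pairs the DSS-enriched region, too, held fewer tags in all in DSS than in water. On chromosome 7 the region at 108249816 to 108250431 held 399 nucleosome and 32 linker tags in water and 147 and 55 in DSS. The DSS-enriched window shifted against it (108250011 to 108250616) held 94 nucleosome and 340 linker tags in water and 76 and 139 in DSS. In water the nucleosome count was thus the larger in one window and the linker count in the other; which tags the windows share was not tested. Summed over nucleosome and linker, these windows fell from 431 to 202 and from 434 to 215 tags. The exception was the region on chromosome 18 named above, whose DSS-enriched partner held 98 tags in water and 165 in DSS.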

How the data were processed

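For each H3K27ac region the authors deposited raw counts of water and DSS tags (MAPQ20 reads, per the file headers); columns headed WT were read as water. Each region has the authors' deposited score, rebuilt here from counts and library totals (largest residual 5.174e-15), and a column headed "id", read as distance in bp to a reference point because it follows the spacing of neighbours in 159 of 159 pairs (tolerance 2 bp). HNF4A peaks of 600 bp carry a deposited peak score of unstated kind. CASAVA 1.8.2, MACS2 and mm9 come from the submitters' processing notes; the aligner is not given in the sources used here. Log2 ratios used a pseudocount of 0.5 and library totals. Ratio intervals are exact conditional (Clopper-Pearson), those of shares Wilson, of differences of shares Newcombe, and of medians binomial over order statistics, all at 95%; functions were checked on simulated data (Python 3.11.15, scipy 1.17.1). Tags without molecular identifiers are not independent molecules. Regions named were the 10 of highest absolute score, the 5 of largest fold with at least 100 water tags and the 5 farthest from a peak. Also named were the 3 largest groups, by separate sites after merging overlaps, and 3 regions on each side of the overlap rule. The exceptions in linker tags and the overlaps with DSS-enriched regions were singled out after their values were seen. Planned gene lists and motifs needed an mm9 annotation and genome and were not used here. The class, lists and alternatives were chosen with earlier results of these data known.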

Additional observations from a re-analysis of the deposited data

How the results depend on the processing

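The 8 main values were recomputed under alternatives, 67 values in all, of which 51 stayed within their interval (for the number of regions, within 1.5 times) and 16 moved; none changed sign. The class held 517 regions, and between 363 and 681 under other definitions of an HNF4A peak, but 247 among the 500 regions of highest absolute score, a setting that takes fewer regions. Those 247 had a median log2 ratio of -1.10 instead of -0.99, 58.7% instead of 48.9% more than 2-fold lower in DSS, a median of 250 instead of 231 water tags, and 5.67% instead of 9.28% within 10 kb of a region with HNF4A (14.9% at a limit of 50 kb). With nucleosome and linker tags together the median was -0.89 and 40.8% were more than 2-fold lower. The difference of medians between regions without and with HNF4A, -0.15, was -0.088 within quintiles of total tags and -0.091 within quintiles of water tags, the latter chosen after seeing the data. Counting a peak only when its centre lay inside the region gave 247 water tags. The share within 10 kb of a peak, 59.4%, followed the peak definition: 42.1% with peaks within 2 kb counted as on the region, 67.7% by peak centre, 38.8% with peaks above the pooled median score, 50.2% with the water list at the length of the DSS list, and 48.9% at a limit of 5 kb. No paired analysis was possible because each group has 1 library and the result comes from no test. The unknown depth of the HNF4A libraries limits what the absence of a peak can show.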
